A study of Arabidopsis thaliana with 8 samples.

Results

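The squalene epoxidases of Arabidopsis thaliana and the enzymes of early sterol synthesis were examined as 10 genes chosen by their identifiers, namely SQE1 to SQE6, HMG1, HMG2, SQS1 and CAS1. Of these, 4 had a row in the authors' deposited table, which holds the 2958 genes called at an adjusted p under 0.05 between leaf protoplasts that received DIV1 and those labelled ev, and 6 had none. The choice was made with results of this comparison known, so the values of the members are given as a description. DIV1 is a DIVARICATA-type MYB transcription factor, and protoplasts are leaf cells whose walls were removed by enzyme. In the TARGET assay such cells take up plasmid DNA that encodes the factor, and RNA is sequenced after an incubation. All 8 poly(A) RNA libraries share the Col-0 genotype and a source in rosette leaves of plants aged 4 weeks, whose cells were released over 90 min, transfected with the help of polyethylene glycol and kept overnight. The titles assign 4 libraries to div1 and 4 to ev, a name that the labels do not spell out and that in such assays commonly stands for the empty vector. The promoter that drives DIV1, and whether replicates were separate plants or transfections, are not stated in the labels.

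For each called gene the table holds its normalized count averaged over all 8 libraries, a log2 fold change with a standard error (SE), and p-values. It gives no value per library, so the depth of each library, the spread between replicates and the effect of leaving a library out are unknown. Its header does not name the numerator, and the direction was set by DIV1 itself, which the authors' deposited table puts at a log2 fold change of 7.61 (SE 0.88), taken to mean higher in div1. The deposited p-values imply 18010 tested genes, of which 16.4% were listed, 9.14% as higher and 7.28% as lower in div1. For a gene with no row, neither its level nor whether it was tested is known. None of the 6 mesophyll, 5 guard cell, 5 epidermis and 5 vascular marker genes was listed, so the labelled tissue could not be checked against marker levels.

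Sterols are made from acetyl-CoA through the mevalonate pathway, in which HMG-CoA reductase is a main control point. Squalene synthase joins a pair of farnesyl diphosphates into squalene, and squalene epoxidase adds an oxygen to give oxidosqualene, the last intermediate shared by sterols and other triterpenes. Cycloartenol synthase then closes the rings of oxidosqualene to give cycloartenol, the usual start of plant sterols. In Arabidopsis, SQE1, SQE2 and SQE3 can replace the squalene epoxidase of yeast, whereas SQE4, SQE5 and SQE6 form a separate subgroup whose enzymatic role is less settled.

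All 4 listed members were squalene epoxidases. Of its 6 genes, SQE6, SQE4 and SQE3 were higher and SQE1 was lower in div1, and SQE2 and SQE5 were not listed. HMG1 and HMG2, which encode HMG-CoA reductases, SQS1, which encodes squalene synthase, and CAS1, which encodes cycloartenol synthase, were not listed either. With 16.4% of tested genes listed, 4 genes are too few to read a restriction to the family from this absence. Whether those 4 were tested is also unknown. In all, 4 of 10 members were listed, beside 16.4% of all tested genes, a share from which nothing is read here because the members were chosen on this comparison. With a log2 fold change of at least 1 in size also required, which 5.67% of tested genes met, SQE6 and SQE4 remained.

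**Figure D1:**
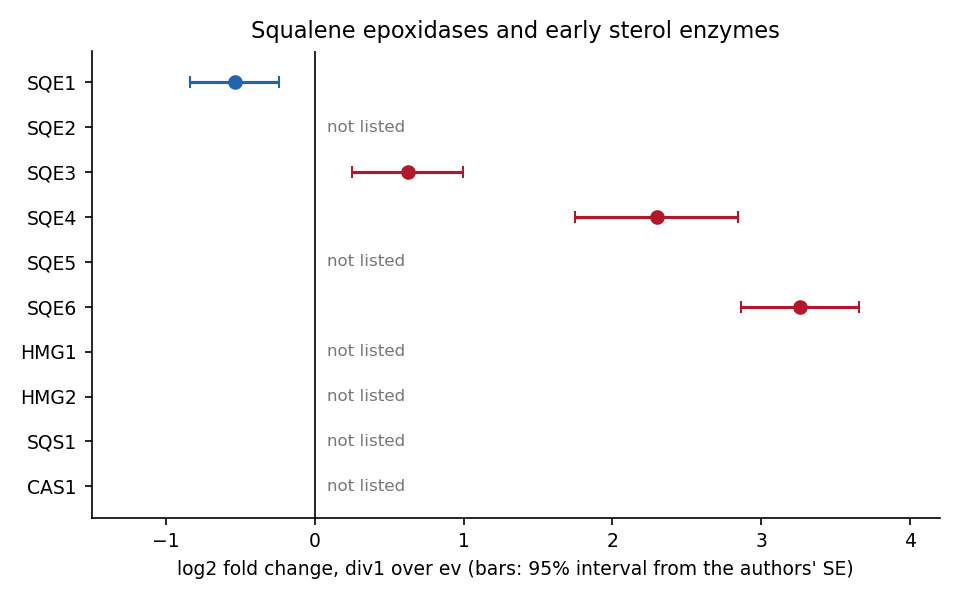
Log2 fold change of each of the 10 genes, div1 over ev, in the authors' deposited table. Points are deposited values and bars are 95% intervals from the SE; red is higher and blue lower in div1. SQE6 and SQE4 lie far to the right at 3.26 and 2.30, SQE3 and SQE1 lie on opposite sides of 0 at 0.62 and -0.54, and 6 genes have no value.

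The squalene epoxidases fall into a pair of protein subgroups, and the listed genes come from both. In protein sequences translated from the TAIR10.1 annotation, SQE1, SQE2 and SQE3 shared 69.8% to 81.4% of aligned residues, and SQE4, SQE5 and SQE6 shared 65.2% to 85.5%. Between the subgroups identity was 44.6% to 49.3%. The closest pair of the family was SQE5 and SQE6, identical at 441 of 516 aligned residues, of which SQE6 was listed and SQE5 was not. Of the next closest pair, SQE2 and SQE3 at 81.4%, SQE3 was listed and SQE2 was not. Neither the level of SQE2 and SQE5 nor whether they were tested is known, so no difference in response within a pair is shown.

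**Figure D2:**
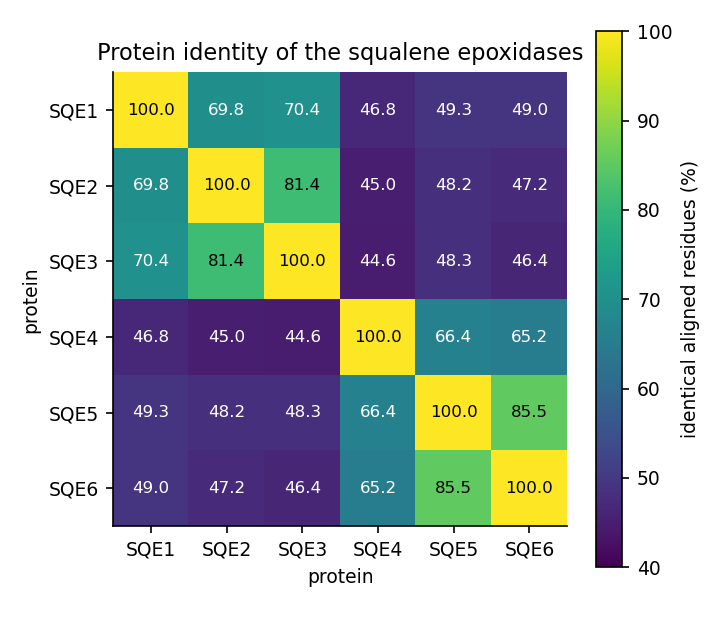
Percentage of identical residues among aligned residues for each pair of the 6 squalene epoxidase proteins. The block of SQE1 to SQE3 and the block of SQE4 to SQE6 stand out, with 85.5% for SQE5 and SQE6 as the highest value off the diagonal.

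The likeness of the family is visible in the coding stretch around the glycine-rich motif that binds the flavin cofactor, a part of the enzyme common to all 6 proteins. It is shown for the 6 genes and for AT5G24155, a short annotated gene between SQE5 and SQE6 whose product of 121 residues matched SQE6 at 77.8% of aligned residues. Each line holds 42 coding bases from TAIR10.1, on the strand of the gene, and capitals mark bases that differ from SQE6.
SQE6: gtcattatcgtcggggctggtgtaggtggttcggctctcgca
AT5G24155: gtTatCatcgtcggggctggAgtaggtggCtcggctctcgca
SQE5: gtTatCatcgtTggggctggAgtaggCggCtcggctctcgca
SQE1: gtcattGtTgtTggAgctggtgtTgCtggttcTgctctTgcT
SQE2: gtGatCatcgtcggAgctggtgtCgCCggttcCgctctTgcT
SQE4: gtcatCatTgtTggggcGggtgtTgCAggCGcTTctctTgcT
SQE3: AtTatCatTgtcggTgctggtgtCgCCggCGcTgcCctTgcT
Over these 42 bases AT5G24155 differed from SQE6 at 4, SQE5 at 6, SQE1 and SQE2 at 9 each, SQE4 at 13 and SQE3 at 14. SQE4 thus differed from SQE6 at more of these bases than SQE1 and SQE2 did, unlike over the whole proteins. Reads that match several copies equally well could be counted for the wrong gene, and the read length is not given in the sources used here. Across whole transcripts the longest run of bases shared by SQE5 and SQE6 was 41, that of SQE4 and SQE5 was 39, and that of SQE4 and SQE6 was 29. No exon word of 50 bases of any of the 10 members or of AT5G24155 occurred a further time in the nuclear genome, on either strand. None of the 10 members overlaps another annotated gene.

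SQE6 (AT5G24160, chromosome 5, 8182917 to 8186704, minus strand, TAIR10.1) combined a high level with a large difference. Its mean normalized count in the authors' deposited table was 37429, rank 41 of the 2958 listed genes. Its log2 fold change there was 3.26 (SE 0.20, adjusted p 3.14e-54), a 9.59-fold higher level in div1 with a 95% interval of 7.27 to 12.6. Splitting the deposited mean by the fold, with 4 libraries in each group, gave estimated mean counts of 7071 in ev and 67786 in div1. By these estimates SQE6 moved from rank 320 among the listed genes in ev to rank 10 in div1. A cut at 10000 on the mean over all 8 libraries was passed by SQE6 only through div1, as its estimate in ev was 7071. Such a cut favours genes with a large rise, which holds for the genes named beside SQE6 as well. The ranks that follow are thus partly built in, and nothing is read from them. Among the 221 listed genes with a mean of at least 10000 the log2 fold change of SQE6 was second only to that of DIV1. The authors' deposited table puts next, by log2 fold change, AT1G22570 at 3.26 (SE 0.23), alike within its error, and the sugar transporter gene STP1 at 2.23 (SE 0.29). In bulk RNA of this kind, more cells expressing a gene and more of its RNA per cell cannot be told apart.

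**Figure D3:**
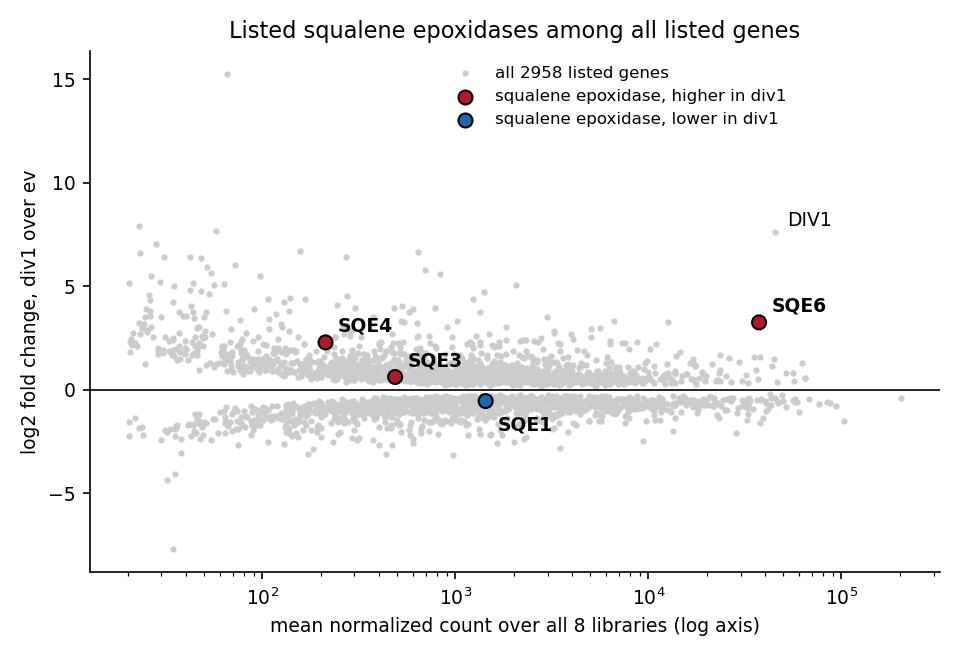
Mean normalized count over all 8 libraries (log axis) against the log2 fold change, div1 over ev, for all 2958 listed genes in grey, with the 4 listed squalene epoxidases in colour. SQE6 lies at the upper right, at a mean of 37429 and a log2 fold change of 3.26, while SQE4, at a mean of 212, lies among weakly expressed genes.

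SQE4 (AT5G24140, chromosome 5, 8164319 to 8167776, minus strand), annotated as SQP2, was the other member with a large difference, at a much lower level. Its log2 fold change in the authors' deposited table was 2.30 (SE 0.28, adjusted p 3.39e-14), a 4.91-fold higher level in div1 with a 95% interval of 3.36 to 7.19. Its mean normalized count was 212 in the authors' deposited table, from which means of 71.8 in ev and 353 in div1 were estimated. Among the 1646 genes higher in div1, SQE6 had rank 73 and SQE4 rank 155 by the size of the fold.

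SQE3 and SQE1, from the subgroup that can replace the squalene epoxidase of yeast, differed by less and in opposite directions. SQE3 (AT4G37760, chromosome 4, 17743738 to 17746697, plus strand) stood 0.62 higher in div1 on the log2 scale of the authors' deposited table (SE 0.19, adjusted p 0.00948), with a 95% interval of 0.25 to 1.00 and estimated means of 383 in ev and 591 in div1. SQE1 (AT1G58440, chromosome 1, 21713842 to 21717380, minus strand), annotated as XF1 and needed for normal root and seed development, stood at -0.54 on the log2 scale of the authors' deposited table (SE 0.15, adjusted p 0.00473). Its 95% interval was -0.84 to -0.24, and its estimated means were 1698 in ev and 1170 in div1. For comparison, the median log2 fold change was 0.81 over all genes listed as higher and -0.76 over all listed as lower, so both genes differed by less than the median listed gene of their direction.

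Per kilobase of exon, the order of the estimated levels in ev was SQE6 at 3102, SQE1 at 857, SQE3 at 175 and SQE4 at 38.1 normalized counts. In div1 the order was the same, with SQE6 at 29731, SQE1 at 590, SQE3 at 269 and SQE4 at 187 normalized counts per kilobase. SQE6 thus made up 74.4% of the summed level per length of the 4 listed genes in ev and 96.6% in div1. The summed level per length of SQE1, SQE3 and SQE4 was 1069 in ev and 1046 in div1, with a lower SQE1 beside a higher SQE3 and SQE4. The ratio of SQE1 to SQE3 per length went from 4.91 in ev to 2.19 in div1, and that of SQE3 to SQE4 from 4.59 to 1.44. These levels carry the errors of both the deposited means and the folds, of which the first is unknown because the table does not give it, and the unlisted SQE2 and SQE5 are not in the sums.

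**Figure D4:**
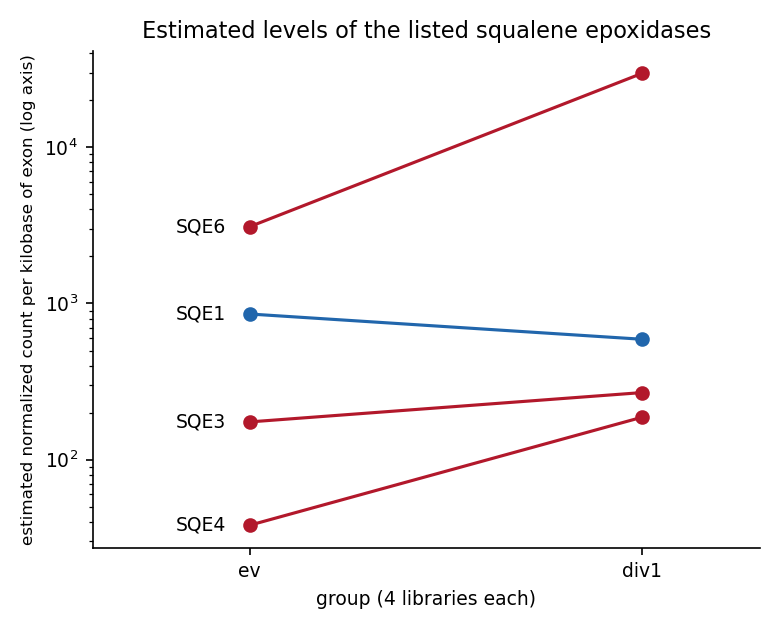
Estimated normalized count per kilobase of exon (log axis) of the 4 listed squalene epoxidases in ev and div1, each group of 4 libraries; each line joins the group estimates of a gene, red where higher and blue where lower in div1, with no error bars because the error of the means is not in the table and so unknown. SQE6 runs from 3102 to 29731 above the other genes, which lie closer together in div1 than in ev.

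SQE4, SQE5 and SQE6 lie in a row on chromosome 5, all on the minus strand, within 22386 bases from 8164319 to 8186704 (TAIR10.1). The gene SQE5 (AT5G24150, 8172300 to 8175525), annotated as SQP1, lies between the other two, 4523 bases from SQE4, and the short AT5G24155 (8179703 to 8181107) lies 1809 bases from SQE6. Neither SQE5 nor AT5G24155 was listed, so the row did not appear in the table as a block. On the far side of SQE6, on the opposite strand and starting 1.46 kb from the SQE6 start site, lies AT5G24165, annotated as an uncharacterized protein. The authors' deposited table lists it as higher in div1 by 1.23 on the log2 scale (SE 0.20, adjusted p 3.74e-08). Its far end, at 8189470, overlaps AT5G24170 on the other strand, which runs from 8189461 to 8191459. The annotated overlap is thus short, and reads from this kit carry no strand.

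**Figure D5:**
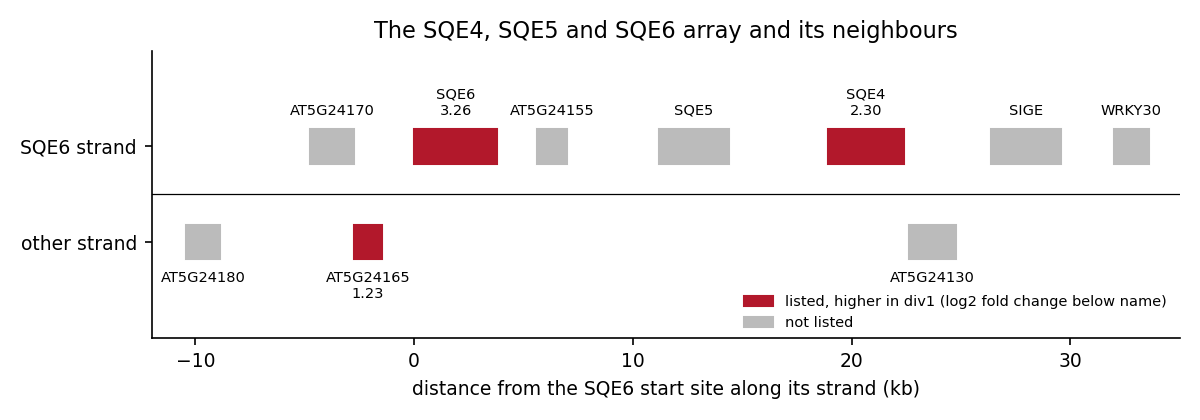
Genes around the row of SQE4, SQE5 and SQE6, drawn to scale by distance in kb from the SQE6 start site along the SQE6 strand, with genes of that strand above the line and genes of the other strand below it. Red genes were listed as higher in div1, with the log2 fold change under the name (SQE6 3.26, SQE4 2.30, AT5G24165 1.23), and grey genes were not listed.

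Over all 10 members, the 5 protein-coding genes on each side came to 81 neighbours, of which 7 were listed, 4 higher and 3 lower. This was 8.64% of the neighbours, beside 10.6% of the 27444 protein-coding nuclear genes of the annotation, and with 10 genes on each side the share was 11.8% (19 of 161). Next to SQE3 lies ACS8, which encodes an enzyme of ethylene synthesis, listed at -1.20 (SE 0.39) on the log2 scale of the authors' deposited table, opposite in sign to SQE3. By log2 fold change, the authors' deposited table puts AT1G76470 near HMG1 at -1.72 (SE 0.56) and EMB2001 near SQE2 at -0.57 (SE 0.19). On the same scale it puts AT2G17360 and AT2G17410 near HMG2 at 0.48 (SE 0.17) and 0.32 (SE 0.09), and AT4G34670 near SQS1 at 0.55 (SE 0.17). SQE1 and CAS1 had no listed neighbour within this range.

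The promoter windows of the 3 genes in the row are shown because SQE6 and SQE4 were listed and SQE5, the closest relative of SQE6, was not. Each runs from 250 bases before to 50 bases after the annotated start (RefSeq annotation, TAIR10.1), 5′ to 3′ on the strand of the gene. Capitals mark any match to TATCCA, a word bound by related MYB factors of rice, GATAAG, the I-box word that contains GATAA, or CACGTG, the G-box, each on both strands.
SQE6 (chr5:8186655-8186954, minus strand): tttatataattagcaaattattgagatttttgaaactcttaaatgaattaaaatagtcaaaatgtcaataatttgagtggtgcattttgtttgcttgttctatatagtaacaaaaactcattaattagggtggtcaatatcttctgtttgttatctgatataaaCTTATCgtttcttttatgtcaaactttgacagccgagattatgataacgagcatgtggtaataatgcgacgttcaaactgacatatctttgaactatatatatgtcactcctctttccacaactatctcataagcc
SQE5 (chr5:8175476-8175775, minus strand): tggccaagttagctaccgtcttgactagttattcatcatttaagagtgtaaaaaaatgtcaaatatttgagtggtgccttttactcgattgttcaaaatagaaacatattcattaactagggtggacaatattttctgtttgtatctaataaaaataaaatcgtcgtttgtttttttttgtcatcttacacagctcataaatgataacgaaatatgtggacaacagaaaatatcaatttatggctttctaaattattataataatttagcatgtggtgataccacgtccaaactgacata
SQE4 (chr5:8167727-8168026, minus strand): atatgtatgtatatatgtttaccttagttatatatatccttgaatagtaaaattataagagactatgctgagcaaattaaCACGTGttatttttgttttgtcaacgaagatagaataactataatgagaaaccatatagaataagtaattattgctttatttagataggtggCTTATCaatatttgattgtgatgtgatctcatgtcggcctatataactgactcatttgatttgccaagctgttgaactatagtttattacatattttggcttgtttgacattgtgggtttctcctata
SQE6 held CTTATC, which is GATAAG read on the other strand, starting 86 bases before the start site. SQE4 held CTTATC starting 78 bases before its start site and CACGTG starting 170 bases before it. SQE5 held none of the 3 words, although its window matched that of SQE6 at 70.5% of aligned bases, against 64.7% for SQE4 and SQE6 and 64.9% for SQE4 and SQE5. Windows of genes on other chromosomes matched that of SQE6 at 62.4% for SQE1 and 63.3% for SQE3, so the values for SQE4 lay near those of genes outside the row. Of the 27443 protein-coding promoters of this length, 14.6% held GATAAG, 16.1% held TATCCA and 7.68% held CACGTG. Of the 10 members, 2 held GATAAG, SQE6 and SQE4, while SQE2 alone held TATCCA, and SQE4 and CAS1 held CACGTG. In CAS1, unlike SQE4, CACGTG lay after the annotated start site, starting 17 bases downstream of it. SQE1, SQE3, HMG1, HMG2 and SQS1 held none of the words in this window. GATAAG and the reverse complement of TATCCA can overlap by the letters GATA, and no member held both words. These matches describe the letters of the windows and show no binding.

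Around these genes, few enzymes of the same and connected pathways were listed. In the mevalonate pathway, 1 of 13 genes was listed, as lower. This was AACT1, an acetoacetyl-CoA thiolase gene, which the authors' deposited table puts at -0.79 on the log2 scale (SE 0.26, adjusted p 0.017) and which overlaps another annotated gene. Between squalene and the first cyclic products, 5 of 10 genes were listed, 4 higher and 1 lower, beside 16.4% of tested genes. Most genes of this list are members chosen on this comparison, so nothing is read from that count. Of the 2 genes outside the members, 1 was listed, LAS1. LAS1, which encodes lanosterol synthase and also cyclizes oxidosqualene, stood at 1.29 on the log2 scale of the authors' deposited table (SE 0.28, adjusted p 6.65e-05). Its mean normalized count there was 461, with estimated means of 268 in ev and 654 in div1.

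After cycloartenol, none of 22 sterol genes was listed, among them SMT1, CYP51A2, DWF1 and CYP710A1. None was listed among 9 genes of brassinosteroid synthesis and turnover, 4 genes that esterify or glucosylate sterols, 11 other oxidosqualene cyclase genes and 5 further enzymes of the thalianol and marneral clusters. The same held for the 7 genes of the plastid MEP pathway, which makes isoprenoid precursors separately from mevalonate. Over these 8 lists, 2 of the 71 genes that are not among the 10 members were listed, or 2.82%, beside 16.4% of tested genes and 10.6% of annotated protein-coding genes. The lists were chosen with earlier results of these data known, and the called family is left out, so this share is given as a description. The authors called genes with DESeq2, and counts at an unadjusted p under 0.05 could not be given because the table holds called genes only. Genes without a row may also have been untested.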

How the data were processed

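Poly(A) RNA was sequenced from 8 libraries, 4 div1 and 4 ev. The submitters' processing notes name HISAT2, DESeq2, featureCounts 2.0.1, fastp 0.21.0 and the TAIR10 build, without settings. The library kit, per the labels' protocols, is NEBNext Ultra II RNA, which does not mark strand. Per the file headers, the authors deposited for each called gene a normalized count averaged over libraries (a signal), the log2 fold change with its SE, the score of the test, and p-values before and after adjustment. No test of samples was run here, as planned for a table of this kind, and depth per library is unknown.

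The number of tested genes, 18010, is the largest product of adjusted p and rank over p, a step tested on simulated data. Group means were estimated from the mean and the fold, and 95% intervals come from the SE by the normal distribution. Named genes are the 10 members, DIV1, listed genes of the fixed pathway lists and listed neighbours; AT1G22570, STP1, AT5G24155, AT5G24170, AT5G16010 and ORP1A were named after their values or positions were seen, and 4 unlisted sterol genes are named as examples of their list. The members and lists were chosen with earlier results of these data known.

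Gene models and sequences came from the RefSeq annotation of TAIR10.1, matched by identifier for 2957 of 2958 rows; no coordinates were converted. The longest coding transcript represented a gene, proteins were aligned globally (BLOSUM62), and exon words were searched in the nuclear chromosomes. The tools were Biopython 1.88, pandas 2.3.3, numpy 2.4.6 and matplotlib 3.10.9 under Python 3.11.15.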

Additional observations from a re-analysis of the deposited data

How the results depend on the processing

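With an adjusted p under 0.01, which 10.9% of tested genes met, the 4 listed members, 3 higher and 1 lower, were the same in number. A mean of at least 50 also left them, but it could remove no member, as the lowest mean was 212, that of SQE4. With a log2 fold change of at least 1 in size, which 5.67% of tested genes met, 2 members were listed, both higher, and 0 lower. At the bound of the 95% interval nearest 0, the log2 fold changes were 2.86 for SQE6, 1.75 for SQE4, 0.25 for SQE3 and -0.24 for SQE1; that these bounds exclude 0 is fixed by the threshold that put the genes in the table. Of the 71 pathway genes outside the members, 2 were listed as deposited. With an adjusted p under 0.01 this fell to 1 of 71, beside 10.9% of tested genes. With a log2 fold change of at least 1 in size it was also 1 of 71, beside 5.67% of tested genes. With 10 neighbours on each side, 11.8% were listed, against 8.64% with 5, so the share lay above the 10.6% of annotated protein-coding genes with the wider range and below it with the narrower. Levels per coding length in place of exonic length, and words of 100 bases in place of 50, moved no value by over 1.5 times. No paired analysis was possible because the table holds no values per library, and for the same reason leaving out replicates, another normalization and another low-count filter were not run.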

Other observations

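A search chosen after the data were seen took all annotated protein-coding genes whose product name holds a sterol or triterpene word. Outside the lists used above it found 64 genes, of which 2 were listed, both higher in div1. AT5G16010, annotated as a member of the steroid 4-dehydrogenase family, stood at 1.20 (SE 0.12) on the log2 scale of the authors' deposited table, at a mean normalized count of 17424. ORP1A, which encodes a protein related to oxysterol-binding proteins, stood at 0.83 (SE 0.18) on the log2 scale of the authors' deposited table, at a mean normalized count of 2206. The listed share of these 64 genes was 3.12%, beside 10.6% of annotated protein-coding genes.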
